A study of Mus musculus with 28 samples.

Results

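Loop hub anchors are 25 kb stretches of the mouse genome from which many chromatin loops start. They were chosen by the loop calls themselves: every 25 kb anchor bin of the Hi-C loop table was counted on either side of each loop, over loops of all condition labels, and bins with 8 or more loops were kept. This gave 1301 hubs among 54990 anchor bins, or 2.37%. The loops came from C2C12, an immortalised mouse myoblast line of wild-type genotype that fuses into multinucleated myotubes when serum is lowered. Cells in growth medium (GM) with 20% fetal bovine serum were compared with cells kept in differentiation medium (DM) with 3% horse serum. Hi-C, which joins and sequences DNA ends that lie close together in the nucleus, covered 3 libraries in GM and 3 at 60 h in DM. Open chromatin was mapped by ATAC-seq, with a transposase that cuts accessible DNA, in 2 libraries of each of these conditions. RNA-seq covered 3 libraries each in GM and at 12, 24, 48, 60 and 96 h in DM. No allele or agent other than the medium differs between the groups, and all of them come from a single immortalised line.

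In mammalian nuclei, the ring-shaped cohesin complex extrudes chromatin loops and often stops where the zinc-finger protein CTCF is bound. An anchor at which extrusion stops can be joined to many places along the flank being reeled in, and it then appears in contact maps as a stripe pointing to that flank. Loops also join promoters with enhancers. These are general properties known from mammalian cells, and neither CTCF nor cohesin was mapped here.

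Promoters that lie in hubs are shown first, because a gene start is where the expression data and the hubs meet. Each window runs from 250 bases before to 50 bases after a RefSeq gene start (build GRCm38.p6, the assembly also called mm10), 5' to 3' on the gene's strand. Efnb2 starts in the hub with most loops, Dio2 is the hub gene with the largest rise named below, and Kcnj2, Ctso, Id2 and Ddit3 are 4 of the 5 named hub genes whose windows hold a searched motif, the other being Rdh5. Capitals mark an E-box, CAGCTG, the site of muscle bHLH factors, or an AP-1 site, TGANTCA, the site of Fos and Jun proteins.
Efnb2 promoter: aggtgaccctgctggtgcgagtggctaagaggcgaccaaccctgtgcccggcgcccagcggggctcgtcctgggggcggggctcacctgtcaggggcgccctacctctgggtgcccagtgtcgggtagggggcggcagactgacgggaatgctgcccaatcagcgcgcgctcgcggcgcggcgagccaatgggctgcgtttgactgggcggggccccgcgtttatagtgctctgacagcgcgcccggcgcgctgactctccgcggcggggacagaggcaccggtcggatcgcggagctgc
Dio2 promoter: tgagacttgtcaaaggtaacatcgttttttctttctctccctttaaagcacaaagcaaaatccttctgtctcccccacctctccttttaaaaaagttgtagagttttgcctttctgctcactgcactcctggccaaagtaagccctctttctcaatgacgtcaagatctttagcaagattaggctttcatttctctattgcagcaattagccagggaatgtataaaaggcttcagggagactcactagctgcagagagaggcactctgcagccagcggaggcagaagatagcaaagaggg
Kcnj2 promoter: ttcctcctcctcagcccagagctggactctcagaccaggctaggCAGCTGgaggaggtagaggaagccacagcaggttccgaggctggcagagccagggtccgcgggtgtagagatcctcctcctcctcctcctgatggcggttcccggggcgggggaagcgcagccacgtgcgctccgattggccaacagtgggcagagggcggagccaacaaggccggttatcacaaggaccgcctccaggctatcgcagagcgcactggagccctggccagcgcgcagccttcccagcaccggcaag
Ctso promoter: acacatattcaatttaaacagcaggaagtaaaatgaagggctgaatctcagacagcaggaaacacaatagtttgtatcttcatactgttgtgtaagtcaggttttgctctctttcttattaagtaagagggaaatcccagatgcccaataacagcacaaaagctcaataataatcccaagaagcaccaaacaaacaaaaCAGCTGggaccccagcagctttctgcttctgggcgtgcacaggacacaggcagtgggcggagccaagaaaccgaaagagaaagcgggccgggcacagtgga
Id2 promoter: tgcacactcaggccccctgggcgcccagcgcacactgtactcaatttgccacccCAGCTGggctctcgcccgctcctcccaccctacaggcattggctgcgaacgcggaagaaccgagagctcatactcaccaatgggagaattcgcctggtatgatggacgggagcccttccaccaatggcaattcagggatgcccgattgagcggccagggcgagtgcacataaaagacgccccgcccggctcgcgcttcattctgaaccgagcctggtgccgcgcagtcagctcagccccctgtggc
Ddit3 promoter: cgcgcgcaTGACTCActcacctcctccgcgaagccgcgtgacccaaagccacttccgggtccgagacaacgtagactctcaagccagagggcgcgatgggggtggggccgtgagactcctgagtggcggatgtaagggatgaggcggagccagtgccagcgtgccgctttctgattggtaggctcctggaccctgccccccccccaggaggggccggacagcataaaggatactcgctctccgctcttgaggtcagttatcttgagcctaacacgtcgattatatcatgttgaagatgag
The windows lie at chr8:8661193-8661492 on the minus strand for Efnb2, at chr12:90738989-90739288 on the minus strand for Dio2, at chr11:111065914-111066213 on the plus strand for Kcnj2, at chr3:81932351-81932650 on the plus strand for Ctso, at chr12:25096043-25096342 on the minus strand for Id2 and at chr10:127290543-127290842 on the plus strand for Ddit3. The Id2 E-box stands well upstream of the start, the Ctso E-box close to it, and the Ddit3 AP-1 site near the 5' end of its window. The windows of Efnb2 and Dio2 held none of the motifs.

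Both strands of every window were searched, with no overlap between the motifs' letters. The E-box stood in 90 of 602 promoter windows in hubs, or 15%, and in 16.3% of all 32851 windows of the same length. An AP-1 site stood in 6.64% of hub windows and 7.81% of all windows. The MEF2 consensus, the site of the muscle MEF2 factors, stood in 3.65% of hub windows and 3.19% of all. The CTCF core consensus stood in 3 hub windows, 0.498%, beside 0.557% of all. Median GC content was 52.7% in hub windows and 52.7% in all. The motif shares in hub promoters were thus close to those in all promoters, and an absent match says only that these letters are not in this window.

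A hub on chromosome 5, at chr5:138150001-138175000 with 12 loops, holds the start of Mcm7, which encodes a subunit of the replicative DNA helicase, and inside that gene the miRNA cluster Mir106b, Mir93 and Mir25. The mature sequences are shown because 2 of them share a seed (bases 2 to 8, in capitals).
miR-106b-5p: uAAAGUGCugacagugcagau
miR-93-5p: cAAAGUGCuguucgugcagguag
miR-25-3p: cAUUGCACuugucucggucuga
miR-106b-5p and miR-93-5p share the seed AAAGUGC, while miR-25-3p has the seed AUUGCAC. In all, 30 mature miRNAs of 19 miRNA genes lie in 17 hubs. Mature miRNAs were not measured, and only the level of the host gene Mcm7 is given below.

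The loop table holds 63732 loops, of which 32587 were called in GM only, 24031 at 60 h only and 7114 in both. It gives no read count, score or p-value for a loop, and no loops per library, so a loop absent from a condition may lie just under the authors' threshold. Hi-C depth per library is not used here, and its part in the labels was not tested. RNA-seq depth was 24.2 to 36.4 M counts (M stands for 10 to the power 6) in 18 libraries, and levels are given as CPM, counts per M. The line's markers matched the labels: Myog, a driver of terminal differentiation, was at 13.1 to 13.5 CPM in GM and 355 to 410 CPM at 60 h. Fat, immune and endothelial markers Adipoq, Plin1, Ptprc, Pecam1 and Cdh5 were at or near 0 in GM, at 60 h and at 96 h, with no library above 0.0917 CPM, while Fabp4, a fat marker, reached 0.306 CPM and Cd68, an immune marker, was at 2.22 to 2.26 CPM in GM and 0.665 to 0.917 CPM at 60 h. Of the fibroblast-type markers, Dcn was at 8.86 to 12.1 CPM in GM and 104 to 116 CPM at 60 h, Col1a1 was at 65.5 to 74.0 and 60.1 to 66.9 CPM, and Pdgfra, which itself starts in an 11-loop hub, was at 11.2 to 14.2 and 6.95 to 7.86 CPM. The part of these markers in the results was not tested.

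By their choice, hubs hold more loops than other anchor bins, and the numbers here describe that choice. They hold 13155 of 127464 loop ends, 10.3%, and 12475 loops have at least 1 end in a hub. A typical anchor bin has a median of 2 loops, and a hub has a median of 9, with quartiles of 8 and 11 and a maximum of 25. The counts fall off smoothly across the threshold: 697 bins have 7 loops and 442 have 8. Bins just outside it had 44.6% of their loop ends in GM-only, 39.9% in 60 h-only and 15.4% in shared loops, and 3.36 ATAC-seq peaks in GM on average. Bins just inside had 43.0%, 40% and 17.0%, and 3.28 peaks. Hubs with 15 or more loops number 107, and 17 have 20 or more. As a share of a chromosome's anchor bins, hubs ranged from 3.49% on chromosome 15 to 1.44% on chromosome 17.

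**Figure D1:**
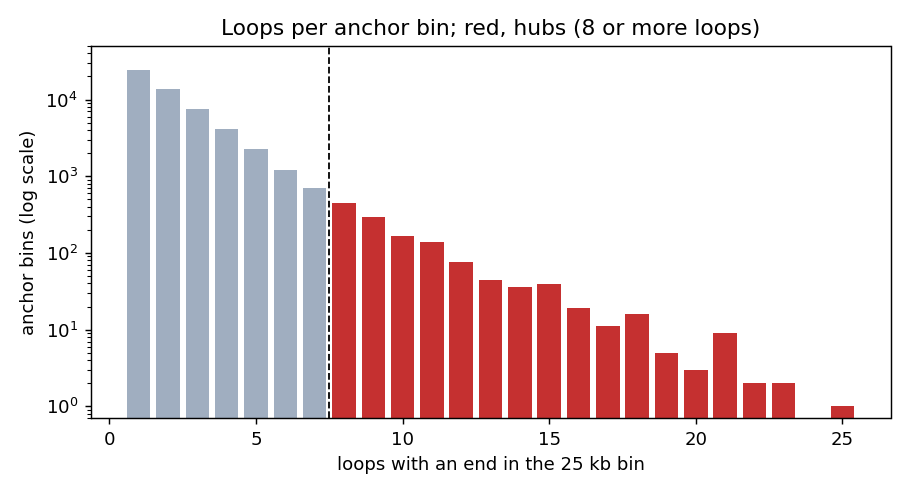
Number of 25 kb anchor bins (log scale) by the number of loops with an end in the bin; red bars are hubs. The counts fall steadily through the threshold, from 697 bins with 7 loops to 442 with 8, and the last bar is a single bin with 25 loops.

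The loops of a hub tend to leave it on the same flank. In 770 hubs, 59.2%, every loop ran to 1 side, 394 to lower and 376 to higher coordinates. At least 75% of the loops ran to 1 side in 1155 hubs, 88.8%, and 31 hubs had equal numbers on both. The share with every loop on 1 side was 65.5% among bins with 2 loops, 52.6% among those with 3 and 45.8% among those with 4. It was 55.5% among bins with 7, 57.0% among those with 8 and 72.0% among the 107 with 15 or more. Partners lay close to each other: neighbouring partner bins on a flank were a median of 75 kb apart at hubs and 150 kb apart at bins with 4 to 7 loops, although more partners in the same reach must lie closer. The nearest partner of a hub lay at a median of 225 kb and the farthest at 1300 kb. The table's loops span 75 to 1975 kb, so its limits also bound a hub's reach. Most hubs are single bins: 1068 of 1178 runs of adjacent hub bins are 1 bin long, and the longest run is 4 bins.

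Hubs also loop to each other. Of the loops, 680 have a hub at each end, with a median span of 875 kb against 525 kb for loops without a hub end. In 423 of them, 62.2%, the lower hub sent most of its loops up and the upper hub most of its loops down, so that the hubs faced each other. Hubs that faced away from each other were joined by 3 loops. The shared loop itself counts toward the side of both hubs, so part of this is fixed by the construction.

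Loops at hubs had a larger share called in both conditions than loops without a hub end. Of loops with a hub end, 43.2% were called in GM only, 41.3% at 60 h only and 15.5% in both. Without a hub end the shares were 53.1%, 36.8% and 10.1%. Bins just under the threshold were close to those just inside. Shared loops made up 15.4% of loop ends at bins with 7 loops and 17.0% at bins with 8. For loops between hubs, 38.7% were called in both (exact 95% binomial interval 35.0 to 42.5%, counting error only, with loops of the same hub not independent). The hub count adds up the labels of both conditions, so these shares are descriptions of the calls that chose the hubs. Loops between hubs are the longer ones by median span. Over the whole table shared loops have a median span of 325 kb, beside 600 kb for GM-only and 550 kb for 60 h-only loops. Labels were not compared at matched span, and the part of span in these shares was not tested.

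**Figure D2:**
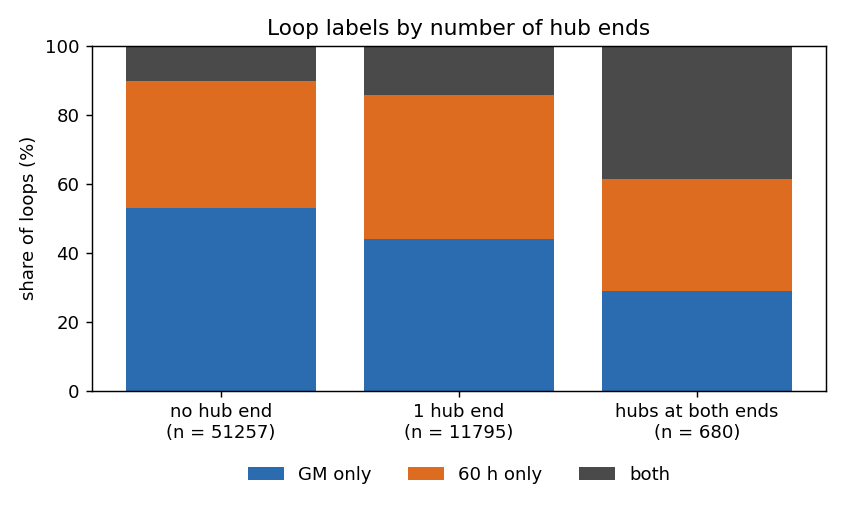
Share of loops (%) called in GM only, at 60 h only or in both, for loops with no hub end, 1 hub end or hubs at both ends. The share called in both is 10.1%, 14.1% and 38.7% in that order.

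Many loops labelled for a single condition at hubs have a close counterpart in the other. Of 10544 such loops with a hub end, 48.2% had a loop of the other condition within 1 bin at both ends. The share was 27.5% for loops without a hub end and 58.8% for loops between hubs. A dense set of partners makes such neighbours more likely, and this was not separated from shifted calls. When 60 h-only loops with such a GM counterpart were dropped, an alternative chosen after the values were seen, 665 bins still had 8 or more loops. Counting each condition alone, 240 bins had 8 or more loops in GM and 220 at 60 h, and 108 had them in each, which is 45.0% of the GM set and 49.1% of the 60 h set.

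Few hubs lacked loops of either single-condition label. The hub rule adds up loops of all labels to 8 or more, so this is largely fixed by the rule. Counted in each condition alone, 45.0% of the GM bins and 49.1% of the 60 h bins with 8 or more loops were in both sets. Loops called in GM only and loops called at 60 h only both occurred in 1291 of 1301 hubs, and 1045 hubs held all 3 labels. GM-only loops outnumbered 60 h-only loops in 580 hubs, the reverse held in 488, and 233 had as many of each. The difference was at most 3 loops in 1118 hubs, 85.9%. Every hub had a loop called at 60 h. A single hub had no loop called in GM: chr15:63600001-63625000, with no annotated gene over it, had 8 loops at 60 h only, all to lower coordinates and 450 to 1300 kb away. At the other end, chr13:25925001-25950000, over the predicted gene Gm11351, had 15 GM-only and 5 60 h-only loops. These extremes are the ends of a range over 1301 hubs.

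The hub with most loops was chr8:8650001-8675000, at the start of Efnb2, which encodes ephrin-B2, a membrane ligand of Eph receptors. All 25 of its loops ran to lower coordinates, reaching 425 to 1875 kb, with 8 called in GM only, 9 at 60 h only and 8 in both. None of the 25 partner bins held the placed start of a tested gene. Of 15303 genes tested, 3243 could not be placed. Next came chr10:97675001-97700000 with 23 loops over Epyc, which encodes a proteoglycan of cartilage matrix, and chr11:113150001-113175000 with 23 over the noncoding gene 2610035D17Rik. Both sent every loop to lower coordinates.

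The other named hubs have 22 or 21 loops. Those with 22 are chr4:85075001-85100000, over Cntln, and chr7:37325001-37350000, over Zfp536, and both ran wholly to lower coordinates. Those with 21 are chr1:62950001-62975000, chr12:52900001-52925000 over Akap6, chr12:95675001-95700000 over Flrt2, chr13:29825001-29850000 over Cdkal1, and chr15:24400001-24425000, where RefSeq places no gene. Akap6 encodes an anchoring protein of the muscle nuclear envelope and Cdkal1 a tRNA-modifying enzyme. Of these 10 hubs, 7 sent every loop down, 2 sent 20 of 21 down and 1, at Akap6, sent every loop up. Further hubs with 21 loops follow and are cut off by the order of chromosome and start. Only the Efnb2 and Flrt2 hubs hold the placed start of a gene that passed the expression filter.

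Some hubs lie at genes of the growth and muscle lists, at their starts or overlapping their bodies. Myc, the growth-promoting transcription factor, starts in chr15:61975001-62000000, whose 17 loops all ran up, 100 to 1600 kb, with 7 called in both conditions, 5 in GM only and 5 at 60 h only. The bin lay over a domain boundary in both conditions. Id2, an inhibitor of myogenic bHLH factors, starts in chr12:25075001-25100000, whose 11 loops all ran up, 325 to 1125 kb. None of the Myc or Id2 partner bins held the placed start of a tested gene. The 3' end of Mef2c, a muscle transcription factor, lies in an 18-loop hub at chr13:83650001-83675000, which runs on past the gene. Of this hub's loops, 9 were called in GM only, 6 at 60 h only and 3 in both, with 16 running down. The 3' end of the embryonic myosin gene Myh3 lies in an 8-loop hub at chr11:67100001-67125000. Of this hub's loops, 7 ran up, 100 to 550 kb, the nearest of them to bins in the skeletal myosin cluster. The bin 100 kb up, with the start of Myh1, was joined to it by a 60 h-only loop, and the bin 125 kb up, with the start of Myh4, by a GM-only loop.

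**Figure D3:**
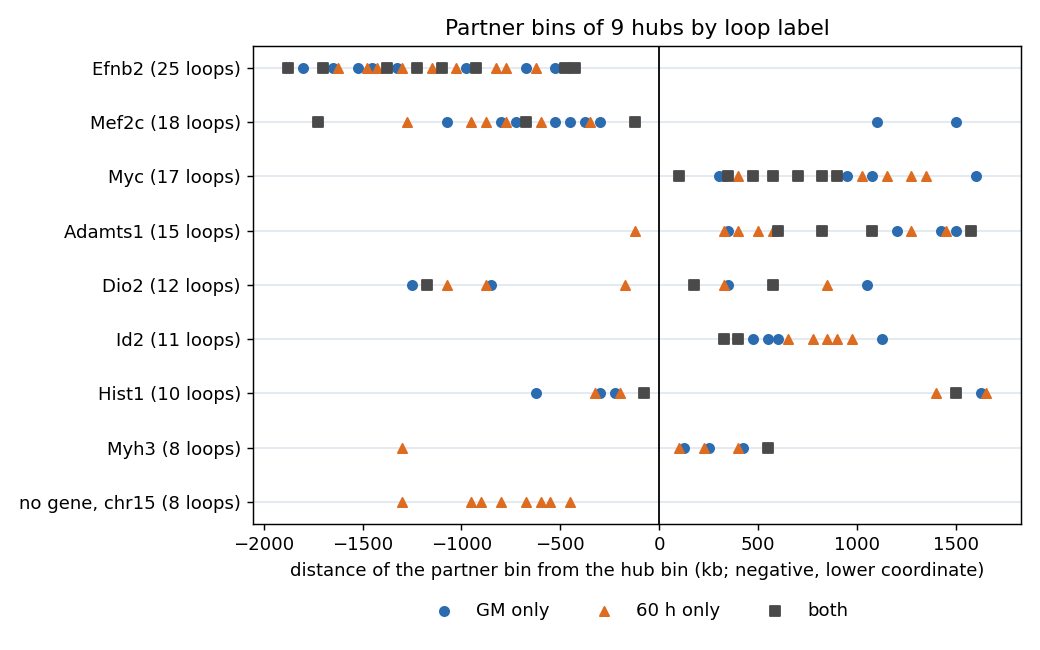
Partner bins of 9 hubs by their distance (kb) from the hub bin, with the label of each loop as a circle (GM only), triangle (60 h only) or square (both). Efnb2, Myc and Id2 have all partners on 1 flank, Dio2 has 6 on each, and the lowest row is the hub with 8 loops at 60 h only.

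Nearly all hubs held open chromatin. An ATAC-seq peak overlapped 97.5% of hubs in GM and 97.5% at 60 h. The shares were 92.9% and 93.6% for bins with 4 to 7 loops, 82.1% and 83.9% for the partner bins of hubs that are not hubs themselves, and 59.8% and 59.8% for all 102188 bins. Hubs held 3.27 peaks on average in GM and 3.40 at 60 h, close to the 3.23 and 3.36 of bins with 4 to 7 loops and above the 1.82 and 1.9 of all bins. The mean covered length was 2012 bases per hub in GM and 2284 at 60 h. Peaks without an overlapping peak in the other condition made up 14.6% of GM peaks and 18.1% of 60 h peaks in hubs, beside 19.4% and 23.0% over all bins. Each condition has 1 peak list for 2 libraries, so no test between conditions was possible. No peak in either condition was found in 22 hubs, among them a 15-loop hub at chr5:13600001-13625000 over Sema3a, which encodes a secreted guidance cue.

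Boundaries of topologically associating domains, called by the authors from the same Hi-C libraries, overlapped a larger share of hubs than of other bins. The share was 11.5% of hubs in GM and 9.76% at 60 h, beside 6.88% and 7.03% of bins with 4 to 7 loops and 5.77% and 5.65% of all bins. The same hubs were largely concerned in each condition: 108 lay over a boundary in both, 42 in GM alone and 19 at 60 h alone. The authors' boundary strength, a score of unstated scale, had a median of 1.11 for the 136 GM boundaries with a hub and 0.771 for the rest, and of 1.20 and 0.874 at 60 h. Loops with 1 hub end stayed within a domain in 54.1% of cases in GM and 58.7% at 60 h, beside 51.7% and 58.6% of loops with no hub end. Loops between hubs, with a median span of 875 kb in GM and 850 kb at 60 h, did so in 46.7% and 51.1% of cases.

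**Figure D4:**
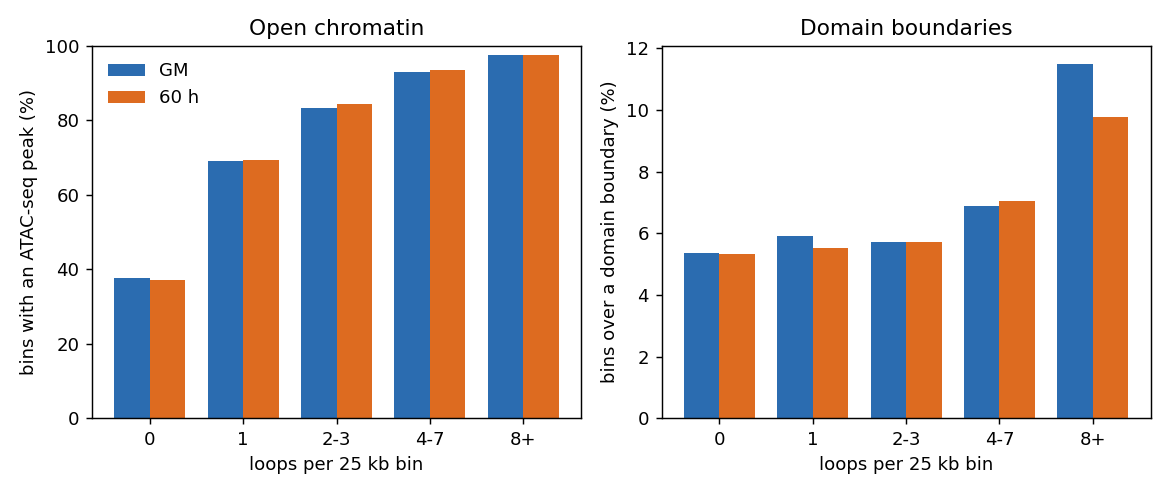
Share of 25 kb bins (%) that hold an ATAC-seq peak (left) or overlap a domain boundary (right), by loops per bin, in GM and at 60 h. Peaks rise from 37.6% of bins without loops to 97.5% of hubs in GM, and boundaries from 5.37% to 11.5%.

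Gene starts were not concentrated in hubs beyond other well-connected bins. On chromosomes with listed starts, 29.3% of hubs held a RefSeq gene start, beside 31.9% of bins with 4 to 7 loops and 22.1% of all bins. The share was 26.5% in hubs with every loop on 1 side and 33.3% in hubs with loops on both. In hubs with every loop on 1 side, 61 of 103 tested genes with a known strand were transcribed toward the loops, 59.2%, and some of these genes share a hub. Promoter windows of tested hub genes overlapped an ATAC-seq peak in 260 of 288 cases in GM and 261 at 60 h. The share for promoters of other tested genes is not given here, so these values are not a trait of hubs.

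Of the count table's genes that start in a hub, 480 in number, 273 passed the expression filter, in 206 hubs. RNA-seq did not enter the choice of hubs, so its test is independent of the rule. At 60 h against GM, 94 of the 273 genes rose and 96 fell (edgeR's quasi-likelihood test, Benjamini-Hochberg adjusted p under 0.05 over all 15303 genes tested). These are 34.4% and 35.2%, beside 33.1% higher and 32.2% lower of all genes tested. Changes of at least 2-fold were seen for 24 higher and 27 lower genes, 8.79% and 9.89%, beside 8.95% and 7.68% of all. The median log2 fold change was -0.05 for hub genes and 0.01 for all genes. Genes that start in the partner bins of hubs gave 37.0% higher and 33.2% lower of 1209, and genes in other anchor bins 34.2% and 35.4% of 7786. Hub genes as a set were therefore called about as often as all genes, in both directions. In bulk RNA, fewer cells of a kind and less RNA per cell cannot be told apart. The genes named below are descriptions of individual hubs within that background, by fold changes on the log2 scale at 60 h against GM.

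The other times were read from the same fit. At 12 h, 52 hub genes rose (19.0%, background 17.8%) and 58 fell (21.2%, background 17.2%). At 24 h, 90 rose (33.0%, background 30.2%) and 99 fell (36.3%, background 30.6%). At 48 h, 84 rose (30.8%, background 32.5%) and 102 fell (37.4%, background 32.8%). At 96 h, 90 rose (33.0%, background 34.8%) and 106 fell (38.8%, background 34.1%). Genes in other anchor bins gave 34.4%, 36.9%, 35.4% and 36.7% lower at 24, 48, 60 and 96 h, near the hub values. All contrasts share the GM libraries. At 24, 48, 60 and 96 h alike, 58 hub genes were called higher, 21.2% beside 19.1% of all genes tested, and 60 lower, 22.0% beside 19.8% of all and 22.4% of genes in other anchor bins.

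The 12 named rises begin with Dio2, Maf and Tgfb2. Dio2, which encodes the enzyme that makes active thyroid hormone in muscle, starts in a 12-loop hub with 6 loops on each flank. It was at 6.82, 7.52 and 6.48 CPM in the GM libraries and at 47.3, 47.4 and 50.8 CPM at 60 h. The groups did not overlap, and the level was higher still at 96 h, at a mean of 85.8 CPM. Its log2 fold change at 60 h was 2.80 ± 0.07 (SE, 3 libraries a group, edgeR adjusted p = 7.2e-19). Of its tested partner genes, Ston2, joined by a GM-only loop, rose by 0.65 ± 0.09 and Gtf2a1, joined by a 60 h-only loop, fell by 0.31 on the log2 scale.

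Tgfb2, a secreted ligand of the TGF-beta family, starts in an 11-loop hub whose loops all ran down. Its level was 4.89, 4.71 and 5.52 CPM in GM and 18.3, 17.3 and 18 CPM at 60 h, with all 60 h libraries above all GM libraries. The log2 fold change was 1.83 ± 0.07 (edgeR adjusted p = 2.8e-15). Cxcr4, a chemokine receptor, went from 14.5, 14.9 and 17.5 CPM to 52.7, 53.5 and 52.5 CPM, a log2 fold change of 1.76 ± 0.06 (edgeR adjusted p = 2.3e-16). Adamts1, a secreted protease of the extracellular matrix, starts in a 15-loop hub with 14 loops running up, 4 of whose 15 partners are themselves hubs. It was at 24.6, 24.0 and 21.0 CPM in GM and 69.4, 71.6 and 77.2 CPM at 60 h, again without overlap. Its log2 fold change was 1.65 ± 0.06 (edgeR adjusted p = 7.4e-16).

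Maf, a bZIP transcription factor, went from 5.08, 4.80 and 5.95 CPM to 23.9, 27.5 and 23.7 CPM, a log2 fold change of 2.25 ± 0.12 (edgeR adjusted p = 7.1e-13). Bcl6, a transcriptional repressor, went up by 1.39 ± 0.08 and Hbp1, an HMG-box repressor of proliferation genes, by 1.16 ± 0.05 on the log2 scale. Kcnj2, an inward-rectifier potassium channel whose promoter is printed above with its E-box, was at 32.7, 29.9 and 39.8 CPM in GM and 94.7, 92.5 and 92.6 CPM at 60 h. Its highest group mean was at 24 h, 130 CPM, and its log2 fold change at 60 h was 1.45 ± 0.08. Smaller named rises were those of Tmsb4x, an actin-monomer-binding peptide, at 1.27 ± 0.07, Ctso, a lysosomal protease, at 1.24 ± 0.10, and Rdh5, a retinol dehydrogenase, at 1.16 ± 0.08. Each rise given here passed the test at an adjusted p of 8.0e-10 or below. Tmsb4x may share reads with near-identical copies, so its level is uncertain.

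The falls included replication-dependent histone genes, which pack newly made DNA. A 10-loop hub at chr13:22025001-22050000 holds the starts of Hist1h2ah, Hist1h2bj, Hist1h2ag, Hist1h2bk and Hist1h4i. Hist1h2bk was at 371, 351 and 342 CPM in GM and 75.6, 84.2 and 80.1 CPM at 60 h, without overlap, and its log2 fold change was -2.15 ± 0.07 (edgeR adjusted p = 8.3e-17). The other 4 fell by 1.53 to 2.58. The hub's 10 partner bins hold 20 tested genes, and 19 of them were called lower, beside 32.2% of all genes tested. All 19 are histone genes of the same cluster, on both flanks, from 325 kb below to 1650 kb above. Copies of these genes are nearly identical, so how reads were split between them is uncertain, and their calls are not independent of each other.

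Myc, Id2, Mcm7 and Kif18a, which act in growth and the cell cycle, were also among the named falls. Myc was at 13.9, 13.5 and 10.7 CPM in GM and 2.70, 3.74 and 3.65 CPM at 60 h. Every 60 h library was below every GM library, and the log2 fold change was -1.91 ± 0.13 (edgeR adjusted p = 2.3e-11). Id2 went from 27.1, 25.7 and 31.6 CPM to 7.36, 8.29 and 8.25 CPM, a log2 fold change of -1.82 ± 0.11 (edgeR adjusted p = 2.4e-12). Mcm7 was at 187, 187 and 184 CPM in GM, at a mean of 205 CPM at 12 h, and at 76.7, 81.1 and 78.1 CPM at 60 h. Its log2 fold change at 60 h was -1.24 ± 0.04 (edgeR adjusted p = 3.1e-17). Of 10 tested genes in its partner bins 6 fell and 1 rose, beside 32.2% lower and 33.1% higher of all genes tested. Kif18a, a kinesin of the mitotic spindle, averaged 33.1 CPM in GM. The mean was 51.4 CPM at 12 h, above GM, and 11.2 CPM at 60 h, below it.

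The largest fall was that of Slc16a11, a member of the monocarboxylate transporter family, from 75.9, 75.8 and 72.4 CPM to 12.5, 14.5 and 10.2 CPM. The groups were far apart, and the log2 fold change was -2.60 ± 0.09 (edgeR adjusted p = 5.6e-16). Its relative Slc16a13 starts in the same 9-loop hub and fell by 1.21. Their partner bins hold 10 tested genes, of which 6 fell and 1 rose, beside 32.2% lower and 33.1% higher of all genes tested. The one that rose is Slc2a4, the insulin-responsive glucose transporter, whose bin lies 275 kb down and is looped to the hub in both conditions, at 1.21 ± 0.43 (edgeR adjusted p = 0.018). Steap1, of a metalloreductase family, fell by 2.30, and Ddit3, the stress-response factor CHOP, by 1.37. Partner genes of other named hubs were mixed. At the Ddit3 hub 5 of 13 rose and 5 fell, and at the Rdh5 hub 4 of 15 rose and 8 fell. The Ddit3 and Rdh5 hubs are joined to each other by a GM-only loop, so each gene counts among the other hub's partner genes. At the Hbp1 hub 0 of 6 rose and 1 fell.

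**Figure D5:**
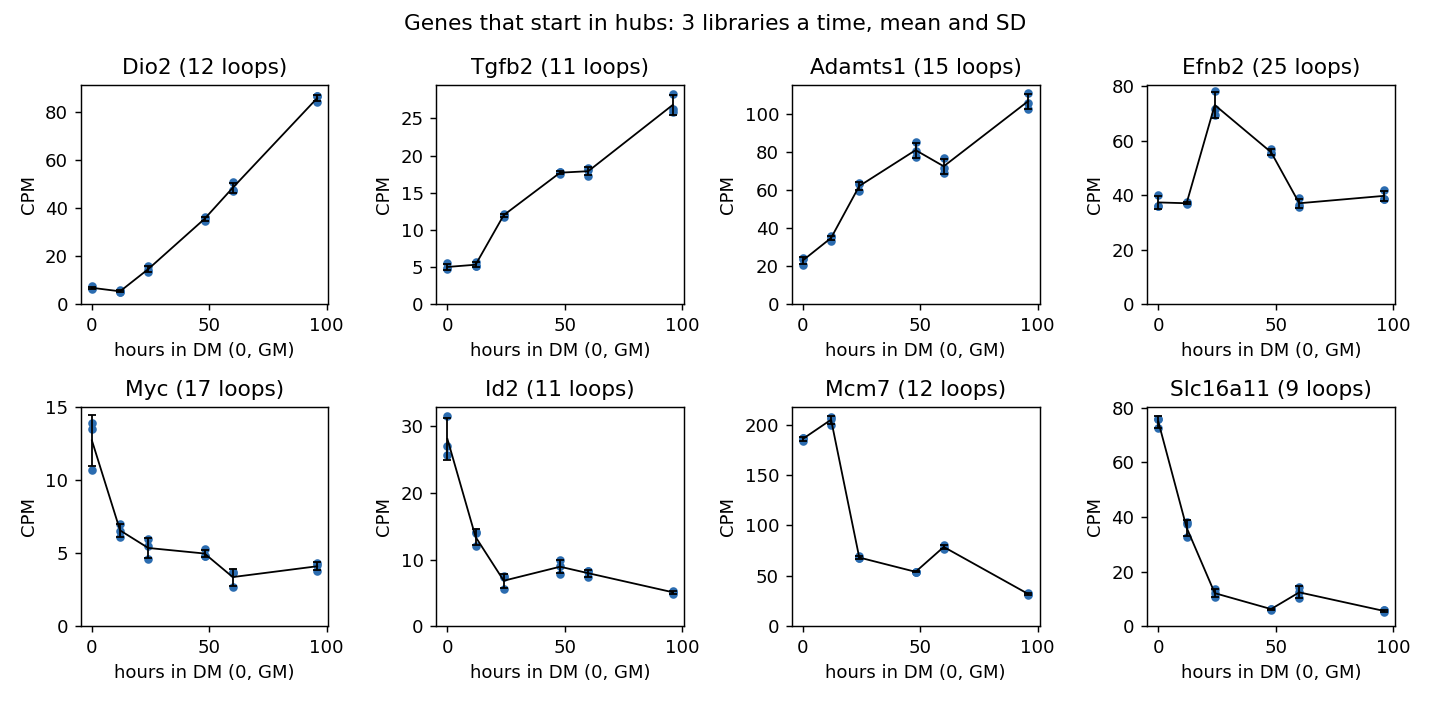
CPM of 8 genes that start in hubs, against hours in DM (0 stands for GM), with 3 libraries a time as points and their mean and SD as line and bars. Dio2, Tgfb2 and Adamts1 end above GM, Myc, Id2, Mcm7 and Slc16a11 end below it, and Efnb2 is highest at 24 h and back near its GM level at 60 h.

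Of the 2 tested genes at the 10 most connected hubs, Flrt2 rose at 60 h and Efnb2 did not pass the test. Efnb2 was at 40, 36.1 and 36.1 CPM in GM and 35.8, 36.5 and 39.0 CPM at 60 h, with overlapping groups and a log2 fold change of -0.01 ± 0.06 (edgeR adjusted p = 0.893). It was higher in between, at 71.8, 69.3 and 78.3 CPM at 24 h, a log2 fold change of 0.97 ± 0.05 (edgeR adjusted p = 1.2e-12). Flrt2, an adhesion and guidance molecule, went from 54.5, 50.8 and 55.9 CPM to 97.7, 90.9 and 96.2 CPM, a log2 fold change of 0.82 ± 0.05 (edgeR adjusted p = 1.6e-12). In hubs with 15 or more loops, 16 tested genes start, chosen for description after their values were seen, of which 6 rose and 4 fell at 60 h, 37.5% and 25%, beside 33.1% and 32.2% of all genes tested. Among them Meis1, a homeobox factor at a 16-loop hub, fell by 0.40, Bdnf, a neurotrophin at a 15-loop hub, fell by 0.37, and Fat4, an atypical cadherin at a 19-loop hub, was at -0.01 ± 0.12. Across the 273 genes, the hub's number of loops and the gene's log2 fold change had a Pearson r of 0.0263 and a Spearman rho of -0.000481, a description over genes that share hubs and libraries.

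The balance of loop labels at a hub had almost no linear or rank relation to the change of its genes. The number of 60 h-only minus GM-only loops against the gene's log2 fold change gave a Pearson r of 0.0283 and a Spearman rho of -0.000338 over 273 genes. At hubs with more 60 h-only loops, 39 of 102 genes rose and 40 fell, 38.2% and 39.2%. At hubs with more GM-only loops, 36 of 109 rose and 32 fell, 33.0% and 29.4%. All genes tested gave 33.1% and 32.2%. Changes of at least 2-fold were 11.8% higher and 10.8% lower at the former hubs and 6.42% and 5.5% at the latter. Of all genes they were 8.95% and 7.68%. The median log2 fold changes were -0.02 at the former and 0.00 at the latter. At hubs with as many of each label, 19 of 62 genes rose and 24 fell, 30.6% and 38.7%. Changes of at least 2-fold there were 8.06% higher and 16.1% lower. With at least 3 more 60 h-only loops, 41.9% of 31 genes rose and 29.0% fell. With at least 3 more GM-only loops, 37.5% of 40 genes rose and 27.5% fell. Signed correlations and medians do not show how often genes change in both directions, and these differences in shares were not tested. For 203 hub genes with tested genes in the partner bins, the hub gene's change and the median change of those partners had a Pearson r of 0.229 and a Spearman rho of 0.105. These points share libraries and hubs, and they include the histone genes above.

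No listed muscle gene starts in a hub, where 2.26% of all placed tested genes start, so a count of 0 is near that background for a list of this size. Of 40 muscle genes listed, 38 were found in the count table and 36 could be placed. At 60 h, 35 of the 38 rose, 92.1% beside 33.1% of all genes tested, with a median log2 fold change of 4.95, beside 0.01 for all genes. The largest number of loops at a muscle gene's start was 5. Myh1, Myh4 and Tnnt1 start in partner bins of hubs. Tnnt1, slow skeletal troponin T, is looped in GM only to a 10-loop hub 850 kb down, and its log2 fold change was 4.82 ± 0.09 (edgeR adjusted p = 2.5e-20). Mef2c, whose 3' end lies in the 18-loop hub, was at 3.82, 4.09 and 3.59 CPM in GM. It was at 19.7, 17.2 and 17.6 CPM at 60 h, without overlap (log2 fold change 2.24 ± 0.11, edgeR adjusted p = 1.2e-13). Myh3 was at 4.63, 4.92 and 5.38 CPM in GM and 257, 220 and 280 CPM at 60 h (log2 fold change 5.66 ± 0.09, edgeR adjusted p = 1.1e-21).

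Of 16 growth genes, 15 were placed and 2 start in hubs, Myc and Id2. As a list, 14 fell and 2 rose at 60 h, 87.5% and 12.5%, beside 32.2% and 33.1% of all genes tested, with a median log2 fold change of -1.41. Of 17 genes of the loop machinery, the cohesin ring, its loaders and release factors, CTCF and other looping factors, 12 were placed and none starts in a hub, the largest number of loops being 4. Of the 17, 10 fell and 3 rose, 58.8% and 17.6%, beside 32.2% and 33.1% of all genes tested, with a median log2 fold change of -0.25. Ctcf fell by 0.31, the cohesin subunits Rad21, Smc1a and Smc3 fell by 0.90, 0.37 and 0.25, and Cdca5, the cohesin-protecting factor sororin, fell by 1.18. Stag2, a cohesin subunit, Mau2, part of the loader, and Esco1, a cohesin acetyltransferase, rose by 0.28, 0.15 and 0.55.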

How the data were processed

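The hub members, gene lists and tests were chosen with earlier results of these data known. Gene-level read counts were deposited by the authors as whole numbers, unscaled. Libraries were strand-specific, per the labels. Sources used here do not say if counting used strand, nor which loop caller was run. Each deposited broad peak list gives a fold enrichment (a ratio) and −log10 q per peak. The deposited loop table gives the condition label of each loop, and the deposited boundary strength is a score. The submitters' processing notes name build mm10, STAR, RSEM 1.3.0, Bowtie2 2.2.6, MACS2 2.2.7 and HiC-Pro 2.9.0. No label says that replicates were separate cultures, so the p-values cover the spread of these libraries only, and that spread may be technical.

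All 18 RNA-seq libraries were fitted with edgeR 4.0.16 (TMM, filterByExpr, quasi-likelihood F test, group as sole factor). Replicates differed by more than sampling noise. CPM values are scaled to the effective library size. The fit was checked on simulated data. DESeq2 1.42.0 was an alternative. Gene starts came from the RefSeq promoter table (GRCm38.p6), or, where none was listed, from genes with both ends in 1 bin. Of 15303 genes tested, 12060 were placed and 3243 were not. Chromosome 18 has no listed start. Named hubs were the 10 with most loops. Named genes were the tested genes starting there, the 12 called rises and 12 called falls of largest size among genes whose mean log2 CPM was 3 or more, and list members starting in a hub. 1 named gene is not reported here. The peak-motif search was not run, and promoter windows were searched instead, a choice made after the data were seen.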

Additional observations from a re-analysis of the deposited data

How the results depend on the processing

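In the expression fit, hub genes called at 60 h numbered 94 higher and 96 lower of 273. Other scalings and DESeq2 gave 88 to 93 higher and 96 to 98 lower of the same 273. The GM and 60 h libraries alone gave 94 and 99 of 264. Without the count filter 88 and 103 of 369 were called, a smaller share in each direction. Leaving out each GM or 60 h replicate gave 81 to 91 higher and 90 to 98 lower of 275 or 276. Leaving out replicate 3 of 24 h, chosen after seeing the data, gave 90 and 103 of 276. The fit with the replicate number as a block gave 93 higher and 97 lower. Same-numbered GM and 60 h libraries correlated at -0.0941 to 0.237, within the -0.456 to 0.467 of differently numbered libraries over all group pairs. The replicate numbers thus gave no sign of pairing, which 3 pairs are too few to exclude. All 27 named genes kept their side of the threshold under these 13 alternatives, and their direction, except Efnb2, which was not called and lay between -0.08 and 0.02 on the log2 scale. Counting genes whose body overlaps a hub gave 267 higher and 201 lower of 657, or 40.6% and 30.6%. The main set had 34.4% and 35.2%, and all genes tested had 33.1% and 32.2%. No share is given here for genes whose body overlaps other anchor bins, and the cause of the shift to higher was not tested. Starts in a hub or a neighbouring bin gave 218 and 204 of 606 (36.0% and 33.7%), and hubs of 10 or more loops 38 and 41 of 109 (34.9% and 37.6%).

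A threshold of 7 loops gave 1998 hubs and one of 10 gave 566, by construction. Dropping 60 h-only loops within 1 bin of a GM loop at both ends, chosen after seeing the data, gave 665. Loops with a hub end called in 1 condition were 84.5%, or 83.3% counted per hub end. Peaks with −log10 q of at least 5 numbered 2.56 per hub in GM and 2.63 at 60 h. Boundaries within 40 kb reached 23.8% of hubs in GM and 22.8% at 60 h, because the window is wider. The motif search in peaks was not run, as no genome sequence was used here.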
